A study of Mus musculus with 5 samples.

Results

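PU.1, the product of Spi1, is a transcription factor of the ETS family that binds DNA sites built around the letters GGAA and is needed for myeloid and B cell development. In myeloid cells it binds both at promoters and at enhancers, and many enhancers lie inside the introns of the genes they regulate or of a neighbour. The interior of a gene close to its start or end is therefore one of the places where binding of PU.1 is looked for when its level is restored.

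The sites described here are the summits of PU.1 binding that lay inside a protein-coding gene, more than 1 kb but at most 10 kb from the nearest end of any protein-coding gene. They were chosen by position alone, on chromosomes 1 to 19, and numbered 1804 of the 10920 listed summits on those chromosomes (16.5%, 95% Wilson interval 15.8 to 17.2) and of 11111 summits in all. Binding was measured by chromatin immunoprecipitation and sequencing with the T-21 antibody in AML-246, a single mouse p53-/- acute myeloid leukaemia that carries a GFP-linked short hairpin RNA against PU.1 (shPU.1). Spleen cells were taken from leukaemic C57BL/6 recipients that had received doxycycline for 2 days, which shuts the hairpin off and restores endogenous PU.1 (PU.1 high, 3 libraries), or from untreated recipients (PU.1 low, 2 libraries). The hairpin and the absence of p53 are thus common to both groups, spleen cells of a recipient may include cells of the host, and the libraries of each group are labelled technical replicates.

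One list of summits was deposited for all 5 libraries, with 1 value per summit, and its name sets high against low. Its entries are therefore taken as sites with more PU.1 in the PU.1 high than in the PU.1 low libraries. The value is the peak caller's score on a −log10 scale, which grows with depth as well as with binding and is no fold change. There is no value per library, so the read depth is unknown, the labelled cell type could not be checked against marker genes, and no spread between libraries or test of treated against untreated mice can be given. Every interval below is a 95% interval that covers counting error, or the spread between sites, only.

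Among these sites, 44 lay inside a promoter window of the RefSeq annotation, which runs from 250 bases before to 50 bases after an annotated start of transcription, although the outer ends of the genes were more than 1 kb away. They are the sites whose sequence could be read. Of the 44, 40 lay in a window of the gene that contained them and 4 in a window of a gene that did not. For 25 of the 40, the gene had no annotated start within 1 kb of its outer end. The window was not always at the first start the promoter annotation gives. In Aqp9 it was at a start 5.22 kb into the gene, and another annotated start lay at 4.56 kb. The highest-scoring 11 are shown, each in the direction of transcription, with the summit at base 51 and the ETS core GGAA, or TTCC where the core is on the other strand, in capitals (sequences from RefSeq, GRCm38.p6, which shares its chromosome coordinates with mm10). The sequences are shown so that the core can be read against the summit.
Dennd4b (chr3:90266480-90266543, plus strand): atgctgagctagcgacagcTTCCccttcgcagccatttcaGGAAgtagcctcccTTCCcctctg
Zfp984 (chr4:147809782-147809882, minus strand): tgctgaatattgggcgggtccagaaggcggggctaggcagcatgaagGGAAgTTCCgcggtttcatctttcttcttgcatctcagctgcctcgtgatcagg
Ifit1bl1 (chr19:34602063-34602163, minus strand): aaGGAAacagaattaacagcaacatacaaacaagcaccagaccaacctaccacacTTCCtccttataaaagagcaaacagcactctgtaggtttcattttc
Aqp9 (chr9:71162683-71162783, minus strand): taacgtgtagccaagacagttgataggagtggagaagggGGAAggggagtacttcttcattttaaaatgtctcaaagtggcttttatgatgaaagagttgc
Ms4a4c (chr19:11407582-11407682, plus strand): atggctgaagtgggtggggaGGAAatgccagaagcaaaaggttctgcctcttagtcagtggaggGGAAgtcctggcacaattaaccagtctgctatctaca
Ptpn1 (chr2:167932225-167932325, plus strand): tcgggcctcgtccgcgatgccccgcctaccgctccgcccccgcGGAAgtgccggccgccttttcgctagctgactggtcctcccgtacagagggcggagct
Il1rn (chr2:24345217-24345317, plus strand): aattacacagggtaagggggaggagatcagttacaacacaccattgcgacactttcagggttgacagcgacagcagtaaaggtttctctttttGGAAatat
Ptpn22 (chr3:103859666-103859766, plus strand): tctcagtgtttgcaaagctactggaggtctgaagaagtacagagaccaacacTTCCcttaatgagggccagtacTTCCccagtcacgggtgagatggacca
Elmo2 (chr2:165320964-165321064, minus strand): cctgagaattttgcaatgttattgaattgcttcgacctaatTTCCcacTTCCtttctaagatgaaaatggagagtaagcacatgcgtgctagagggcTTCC
Clta (chr4:44012462-44012562, plus strand): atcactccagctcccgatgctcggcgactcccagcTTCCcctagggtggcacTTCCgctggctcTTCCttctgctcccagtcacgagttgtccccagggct
Naip5 (chr13:100247307-100247401, minus strand): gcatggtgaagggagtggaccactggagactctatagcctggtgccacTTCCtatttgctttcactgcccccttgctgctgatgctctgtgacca
The core stood next to the summit in most of them. In Elmo2, which encodes an engulfment and cell motility adaptor, and in Naip5, an inflammasome sensor of bacterial flagellin, the middle of the core was 0.5 bases from the summit. It was 1.5 bases away in Zfp984, a zinc finger gene, where GGAA and TTCC follow each other 1 base apart, and 3.5 bases away in Ptpn22, a lymphoid and myeloid phosphatase, and in Clta, the clathrin light chain. In Il1rn, the interleukin 1 receptor antagonist, the 101 bases around the summit held a single core, 44.5 bases from it. Naip5, Ifit1bl1, Ms4a4c and Zfp984 belong to families with near-identical copies, and the sources used here do not say how reads that match several copies were placed.

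A second set shows windows with the longer PU.1 letters GAGGAA on either strand, chosen after their values were seen. D130017N08Rik is a long non-coding RNA whose start lay inside Usp42, Nfkbid is an atypical inhibitor of NF-kB, Gpr35 is a G protein-coupled receptor and Nlrp3 is the inflammasome sensor.
D130017N08Rik (chr5:143758181-143758281, plus strand): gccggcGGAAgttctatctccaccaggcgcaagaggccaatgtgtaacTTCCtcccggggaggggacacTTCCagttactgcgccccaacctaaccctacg
Nfkbid (chr7:30423118-30423218, plus strand): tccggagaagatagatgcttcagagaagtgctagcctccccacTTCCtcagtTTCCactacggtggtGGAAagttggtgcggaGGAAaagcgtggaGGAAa
Gpr35 (chr1:92978849-92978932, plus strand): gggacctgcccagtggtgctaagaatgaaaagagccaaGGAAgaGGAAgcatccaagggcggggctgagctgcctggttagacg
Nlrp3 (chr11:59542576-59542676, plus strand): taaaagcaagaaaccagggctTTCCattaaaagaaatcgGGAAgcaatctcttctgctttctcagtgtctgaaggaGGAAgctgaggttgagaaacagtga
The D130017N08Rik window held the longest form searched, GAGGAAGT, read on the other strand, with its GAGGAA 0.5 bases from the summit. The Nfkbid stretch held 3 copies of GAGGAA and Gpr35 held 1 copy, 5.5 bases from the summit. In Nlrp3 the nearest GAGGAA was 26.5 bases from the summit, while a GGAA lay 9.5 bases from it. Summit scores were 12.5 at D130017N08Rik, 8.84 at Nfkbid, 3.63 at Gpr35 and 2.72 at Nlrp3, so the letters were found over high and low scores.

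Where at least 50 bases could be read on each side of the summit, the middle of a GGAA on either strand lay within 10 bases of it at 25 of 32 intragenic sites 1 to 10 kb from an end (78.1%, Wilson interval 61.2 to 89.0). At the other listed sites in promoter windows it did so at 274 of 387 (70.8%, 66.1 to 75.1). The same places in all 31396 windows held the core in 21.4%. The share within 20 bases was 87.5% at the 32 sites and 91.7% at the other sites, against 37.7% in all windows. GAGGAA lay within 10 bases at 8 of the 32 sites (25.0%, 13.3 to 42.1) and at 17.6% of the other sites, against 2.21% in all windows. The intervals of the interior and the other sites overlapped at each of these distances.

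Over the whole of the 50 windows that held one of the 44 summits, GAGGAA on either strand was present in 22 (44.0%, 31.2 to 57.7), against 28.2% of all windows. GAGGAAGT, which contains GAGGAA, was in 5 of 50 (interval 4.35% to 21.4%), against 3.25%. The letters of factors that often bind near PU.1 were also counted on both strands. TTGCNNAA, the C/EBP letters, was in 8 of 50 windows (16.0%, against 10.9% of all windows), and TGTGGT, the RUNX letters, in 13 (26.0%, against 16.7%). TGANTCA, the AP-1 letters, was in 4 (8.0%, against 7.84%), CACCC, the KLF letters, in 31 (62.0%, against 57.7%), the ETS-IRF composite element, which contains GGAA, in 1 (2.00%, against 2.74%), and TGACGTCA, the CRE letters, in 0 (up to 7.13%, against 1.83%). The interval held the share of all windows for each of these partner letters, whereas those of GAGGAA and GAGGAAGT lay above it. Windows that held other listed sites had GAGGAA in 50.1%, GAGGAAGT in 10.6% and the composite element in 7.06%, each within the interval of the 50 windows. TTGCNNAA can hold a GGAA within it, and the other letters can share bases with one at their ends. Some of the 50 windows overlap and share a summit.

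**Figure D1:**
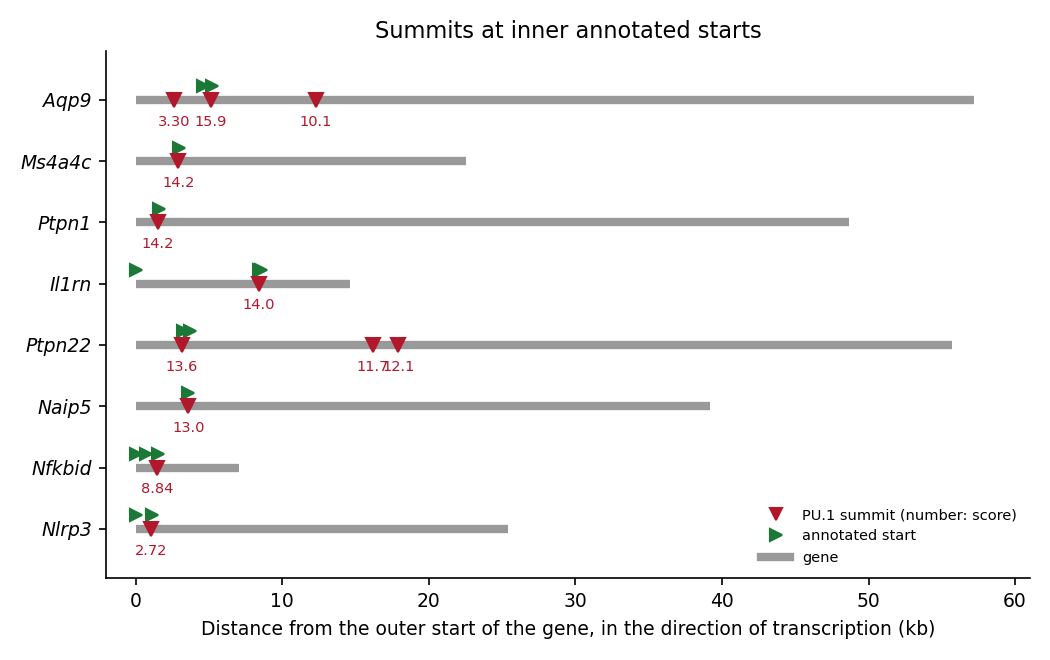
Position of every listed PU.1 summit (red triangles, with the score of the summit below) and of every annotated start (green arrows) along 8 genes, drawn as grey bars to scale in kb from the outer start of the gene in the direction of transcription. In each gene a summit stands at an annotated start that lies inside the gene, 1.12 kb into Nlrp3 and 8.43 kb into Il1rn.

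The map of summits and annotated starts shows where these sites fell. In Il1rn (chromosome 2, 24336860 to 24351491), the summit at 24345267 lay 24 bases before a start that is 8.43 kb into the gene, downstream of another annotated start at the outer end, and scored 14.0. Aqp9, an aquaglyceroporin gene, had its summit of score 15.9 at 100 bases before a start 5.22 kb into the gene on chromosome 9, and summits of 3.30 and 10.1 on either side. In Ptpn22 the summit of score 13.6 stood 79 bases before a start, and summits of 11.7 and 12.1 lay further into the gene. The 44 summits had a median score of 6.12, against 8.64 for all 1804 interior sites. A score of at least 10 was reached by 13 of the 44, against 686 of the 1804 (38.0%) and 37.5% of all sites. Promoter windows held 44 of the 1767 interior sites 1 to 10 kb from an end on chromosomes with windows (2.49%, 1.86 to 3.33), 42 of 3144 sites deeper inside genes (1.34%, 0.990 to 1.8) and 8 of 1357 intergenic sites at 1 to 10 kb (0.590%, 0.299 to 1.16). Nearer to gene ends, windows held 286 of 419 sites within 100 bp (68.3%) and 141 of 804 at 100 bp to 1 kb (17.5%). The share of sequence inside windows is not given here. Within 1 kb of an annotated start lay 149 of the 1767 (8.43%, 7.23 to 9.82). Among hosts of known strand, leaving out 1 kb around annotated starts took the sites from 1449 to 1305. It took the sequence that meets the position rule from 95.4 to 90.6 Mb nearer to starts, and from 95.4 to 94.1 Mb nearer to ends.

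The interior sites lay more often towards the start of a gene than towards its end. The promoter annotation gave the strand of 16456 of 20661 protein-coding genes (79.6%) and so of the host of 1449 of the 1804 sites (80.3%). Of these 1449, 926 were nearer to the start of the host gene (63.9%, 61.4 to 66.3) and 523 nearer to its end, whereas the sequence that meets the position rule was 95.4 Mb nearer to starts and 95.4 Mb nearer to ends. This came to 9.70 sites per Mb (exact Poisson interval 9.09 to 10.3) near starts and 5.48 (5.02 to 5.97) near ends, a ratio of 1.77. The ratio was 1.55 in host genes up to 20 kb, 1.88 in those of 20 to 50 kb and 1.84 in longer ones. At a score of at least 10 it was 1.68. Median scores were 8.78 (8.36 to 9.18) near starts and 8.72 (8.26 to 9.24) near ends.

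The density was highest just inside the start. At 1 to 2 kb from the start there were 210 sites, or 15.6 per Mb (13.6 to 17.9), and 61 sites at the same distance from the end, or 4.59 per Mb (3.51 to 5.89). From 4 to 5 kb the densities were 6.96 (5.48 to 8.73) from the start and 5.96 (4.59 to 7.62) from the end. At 6 to 7 kb they were 10.4 (8.40 to 12.6) and 5.66 (4.24 to 7.40), and at 9 to 10 kb 7.68 (5.84 to 9.90) and 5.59 (4.05 to 7.53), each with the start given first. Intervals overlapped at 4 to 5 kb and beyond 7 kb. From the end, the density stayed between 4.59 and 5.96 per Mb in all 9 steps.

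**Figure D2:**
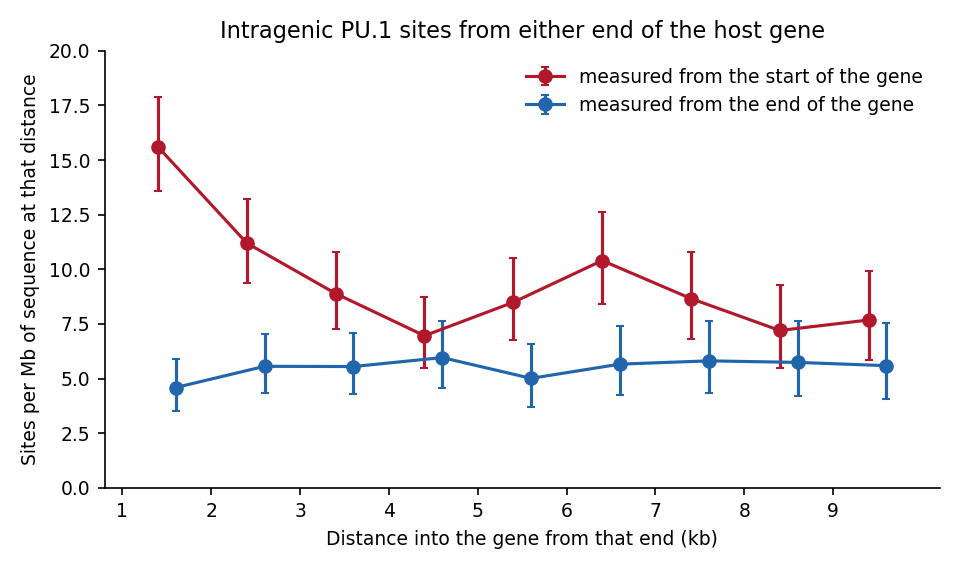
Intragenic PU.1 sites per Mb of sequence (vertical axis) in 1 kb steps of distance into the host gene (horizontal axis, kb), measured from its start (red) and from its end (blue); points are densities and bars are exact Poisson 95% intervals. The red point at 1 to 2 kb is at 15.6 per Mb and the blue one at 4.59 per Mb.

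The part of starts inside genes in this difference was looked at by leaving them out. The gene ends used here are the outermost of any transcript, and in 1646 of the 16456 genes with a promoter window the outermost window start lay more than 1 kb inside that end. Sequence and sites within 1 kb of every start in the promoter annotation were left out. Starts of genes without a promoter window could not be left out. Of the 1305 sites that remained, 800 were nearer to the start (61.3%, 58.6 to 63.9), as was 49.0% of the remaining sequence. The densities were 8.83 against 5.37 sites per Mb, a ratio of 1.65. At 1 to 2 kb the densities were then 13.4 per Mb (11.3 to 15.7) from the start and 4.65 (3.56 to 5.97) from the end. This comparison was added after the values were seen.

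Counted from the nearest end of any gene, the density was 9.74 sites per Mb (8.75 to 10.8, 354 sites) at 1 to 2 kb and between 6.29 and 8.01 in the 8 steps from 2 to 10 kb. Over the whole range it was 7.50 per Mb (7.16 to 7.85) of 241 Mb of eligible sequence. Deeper gene interiors had 4.64 per Mb (4.48 to 4.80) of 702 Mb, intergenic sequence at the same 1 to 10 kb had 6.82 (6.47 to 7.19), and sequence 100 bp to 1 kb from a gene end had 12.3 (11.5 to 13.2). The median distance to the nearest end was 4.42 kb (quartiles 2.40 and 6.79), and that end belonged to a host gene at 1639 sites (90.9%). At the remaining sites it belonged to a neighbouring or nested gene.

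Scores of the interior sites were those of the list at large. Their median was 8.64 (order-statistic interval 8.36 to 8.84), with quartiles of 5.78 and 11.9 and a range of 1.35 to 38.5, against 8.54 (8.36 to 8.64) for the other 9116 sites. A score of at least 10 was reached by 686 (38.0%, 35.8 to 40.3), against 37.5% of all sites, and a score of at least 20 by 74 (4.10%, 3.28 to 5.12), against 3.93% of all sites. Sites within 100 bp of a gene end had a median of 7.63 (7.29 to 8.22) and those at 100 bp to 1 kb one of 7.84 (7.48 to 8.35), both with intervals below that of the interior sites. The intervals for sites deeper inside genes (8.72, 8.46 to 8.81) and for intergenic sites at 1 to 10 kb (8.36, 8.0 to 8.64) overlapped it. Across the 1804 sites, distance and score had a Pearson r of 0.0135, given as a description of sites from 1 list.

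**Figure D3:**
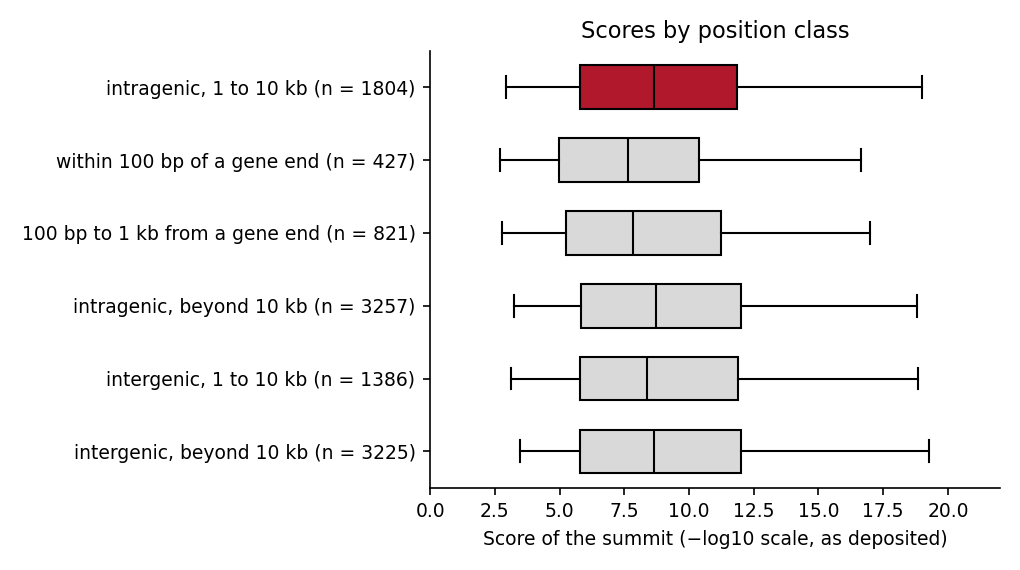
Score of each summit on the deposited −log10 scale (horizontal axis) by position; boxes span the quartiles with the median as a line and whiskers run from the 5th to the 95th percentile of sites. The box of the 1804 interior sites (red, median 8.64) overlaps all other boxes, and the sites within 100 bp of a gene end have the lowest median, 7.63.

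The highest score, 38.5, was at Cd81 (chromosome 7, 143052750 to 143067930), which encodes a tetraspanin of the cell surface; the summit at 143059610 was 6.86 kb into the gene. St3gal4, a sialyltransferase gene on chromosome 9 that helps make selectin ligands of leukocytes, held summits of 32.3 at 35050157 and 25.9 at 35055859, 3.58 and 9.28 kb before its end. Ddx4, a germ cell RNA helicase gene, held one of 30.8, 4.47 kb before its end. Ccnyl1, a cyclin-like gene, held one of 29.6, and Otulinl, a relative of the deubiquitinase OTULIN, one of 28.8 at 6.32 kb from its start and a second of 8.64. Cd83, a marker of activated dendritic and B cells, held summits of 28.1 and 8.35 on chromosome 13, at 43790949 and 43786360. Whether a summit lies in an exon or an intron was not analysed here.

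The other hosts among the 15 highest-scoring sites include genes with no known part in blood cells. Vmn2r26, a vomeronasal receptor gene, held a summit of 27.4 at 3.93 kb from its start, and Clcn1, the chloride channel of skeletal muscle, one of 26.9 at 8.68 kb. Ralgps1, an exchange factor gene for Ral, held a summit of 27.4, Mok, a protein kinase gene, one of 26.3 and Pld3, a lysosomal nuclease gene of the phospholipase D family, one of 25.7, each of them 5.32 to 5.49 kb before the end of the gene. Ptrhd1 held one of 26.9, with another listed summit 0.639 kb away. Cradd, an adaptor of caspase-2 activation, held one of 25.7 at 1.77 kb from its start, and Bcl9, a Wnt co-activator gene, one of 25.6 at 3.51 kb. Clcn1, Pld3, Ptrhd1 and Bcl9 also held a second interior site each, of 18.1, 18.1, 4.34 and 4.57. A summit inside a gene need not act on that gene, and no expression was measured in these libraries.

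A gene could hold several sites. The 1804 sites fell in 1570 protein-coding genes, 7.60% of the 20661 on chromosomes 1 to 19, with 37 sites in 2 genes and 1 site in 3. Of the 1570, 230 (14.6%, 13 to 16.5) held at least 2. Med12l (chromosome 3, 59005419 to 59318446) held 5, with scores of 6.22 to 17.2. They lay around P2ry13 and P2ry12, purinergic receptor genes named after their values were seen, which are nested inside Med12l and read from its opposite strand in the case of P2ry12. The summits of 6.22 at 59225612 and 8.22 at 59260935 were inside P2ry12, and that of 17.2 at 59264240 was 1.25 kb outside its start. The other summits, of 13.9 and 11.9, were nearest to P2ry13.

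Ncf4, the p40phox subunit of the phagocyte NADPH oxidase, held 4 sites within its 18.4 kb on chromosome 15, with scores of 19.99, 15.9, 9.48 and 2.32, the first 2 towards one end of the gene and the others towards the other. Grk2, a kinase of chemokine receptors, held 4, the highest of 14.2 and 11.8 at 4300359 and 4299779 on chromosome 19. Cradd held 4, of 25.7 near its start and of 6.57, 11.0 and 5.28 near its end. Kcnk13, a potassium channel gene, held 4 of 4.23 to 6.57, in a pair near either end. The 4 sites of Ugt1a10 and of Ugt1a9, glucuronosyltransferase genes, are the same 4 summits, since these genes overlap, and scored 5.06 to 10.4.

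The hosts were long genes, with a median length of 33.3 kb (quartiles 18.9 and 65.9), against 17.5 kb for all genes, as the rule asks for an interior. No gene of up to 2 kb can hold such a site. Among genes of 2 to 10 kb, 122 of 5051 held one (2.42%, 2.03 to 2.88), among those of 20 to 50 kb 578 of 4850 (11.9%, 11.0 to 12.9), and among those above 100 kb 242 of 2312 (10.5%, 9.28 to 11.8). Per Mb of eligible interior the density was 7.45 to 7.90 in the 4 classes from 2 to 100 kb and 5.94 (5.28 to 6.65) above 100 kb. Lists of genes are therefore given below both as a share of genes and per Mb.

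**Figure D4:**
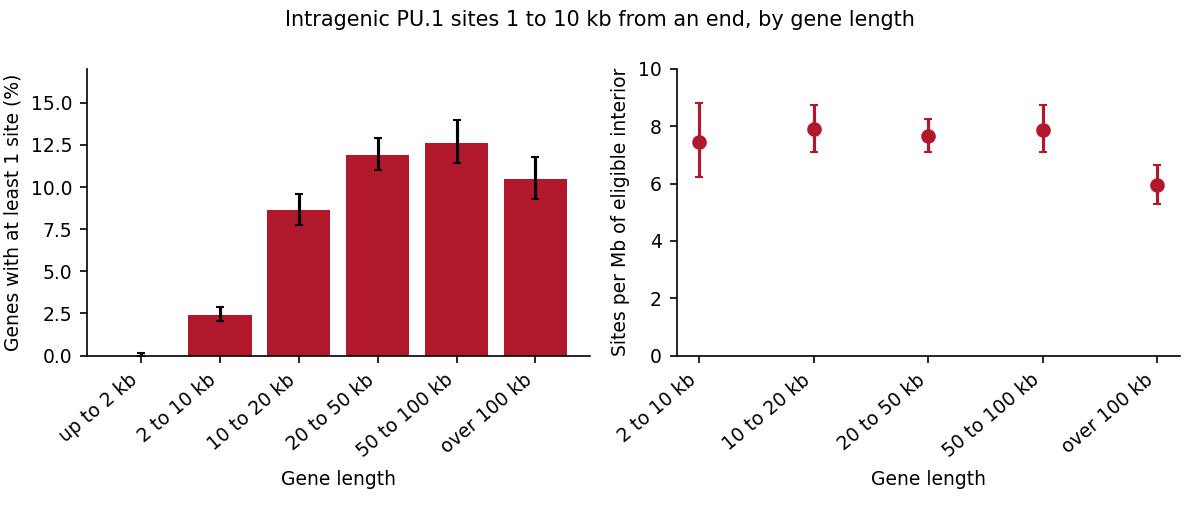
Genes with at least 1 intragenic PU.1 site 1 to 10 kb from an end (left, per cent, bars with Wilson 95% intervals) and sites per Mb of eligible interior (right, points with exact Poisson 95% intervals) by gene length. The share reaches 12.6% at 50 to 100 kb, while the density is 7.45 to 7.90 per Mb up to 100 kb and 5.94 above.

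Of 540 different genes in 19 lists, 102 held a site (18.9%), against 7.60% of all genes and 8.57% of the 18324 genes with an eligible interior. The lists were chosen with earlier results of these data known, so these shares are a description and no test. In 8 lists the interval lay above the 7.60% of all genes. The same number of lists had a density interval above the 7.38 per Mb (7.05 to 7.73) of all genes, where a site in 2 genes counts for each. The highest share was in the kinases, phosphatases and adaptors of haematopoietic signalling, where 18 of 38 genes held 26 sites (47.4%, 32.5 to 62.7; 36.5 per Mb, 23.9 to 53.5). Vav1, an exchange factor of immune receptor signalling, held a summit of 22.6 at 6.06 kb from its start. Elmo1, a partner of DOCK proteins in engulfment, held one of 20.4 at 1.93 kb, and Lyn, a Src-family kinase, ones of 20.3 and 4.83. Syk, a kinase of Fc receptors and integrins, held 11.1 and 2.06 within 2.47 kb of its start, and Ptpn6, the phosphatase SHP-1, held 11.3 and 6.77; both were named after their values were seen. Arhgap15 and Arhgap25, inhibitors of Rac, held none, although 2 and 3 listed summits lay in their spans at other distances. Here and below, a gene without a site is one without a listed summit in the range of 1 to 10 kb. Such a gene may hold listed summits nearer to an end or deeper inside.

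The lysosome and phagocytosis list had a site in 11 of 30 genes (36.7%, 21.9 to 54.5; 34.3 per Mb). Its highest were at Ctsh, a cathepsin (21.4 and 5.59, 0.44 kb apart), at Grn, progranulin (14.3 and 9.68, both within 2 kb of its start), and at Ctsz (11.0). The proton pump genes Atp6v0d1 and Atp6v1a held none. Of the neutrophil and NADPH oxidase genes, 9 of 30 held 15 sites (30.0%, 16.7 to 47.9). These are short genes, and their density was the highest of the lists, 60.8 per Mb (34.0 to 100.2). Next to Ncf4, Itgam, the CD11b gene, held 1 (9.30, 5.45 kb from its start). Ceacam1 and Chil3 held none.

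Receptors made up another group with shares above that of all genes. Growth factor and cytokine receptors held a site in 9 of 29 genes (31.0%, 17.3 to 49.2), among them the interleukin 1 decoy receptor Il1r2 (21.5, 2.92 kb from its start), the G-CSF receptor Csf3r (18.5, 7.49 kb) and Tgfbr2 (10.8, 8.96 kb). Csf2ra and Csf2rb2, subunits of the GM-CSF and interleukin 3 receptors, held none. Pattern recognition, Fc and lectin receptors held one in 10 of 33 genes (30.3%, 17.4 to 47.3), led by Tlr2, a sensor of bacterial lipoproteins (18.8), Trem2, a lipid sensor of macrophages (14.5), and Nlrc4, an inflammasome adaptor (14.4). Each of these 3 summits was within 4.29 kb of the start. Card9 and Clec4a2 held none. Integrin, adhesion and cytoskeleton genes held one in 11 of 36 (30.6%, 18.0 to 46.9), with Tln1, the talin that activates integrins (16.8 and 3.83), and Myo1g, a myosin of blood cells (12.99 and 6.57), next to Cd81, and with Actn1 and Arpc5 among those without.

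Myeloid transcription factor genes held a site in 7 of 32 (21.9%, 11.0 to 38.8). Nr4a1, a nuclear receptor of patrolling monocytes, held 3 of 10.1, 14.97 and 15.9 along its 20.9 kb, Irf5, an interferon regulatory factor of macrophages, held 1 of 14.2, and Rara, the retinoic acid receptor, held 11.0 and 7.76. Bach1 and Batf3 held none, and neither did Spi1, the gene of PU.1 itself. Monocyte and macrophage genes held a site in 6 of 30 (interval 9.51% to 37.3%), at Apoe (16.3, 1.53 kb from its start), Ctss (14.7), Cx3cr1 (10.5) and 3 more, with Abca1 and Adgre1 among those without. The density interval of this list, 5.50 to 32.6 per Mb, included the density of all genes.

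**Figure D5:**
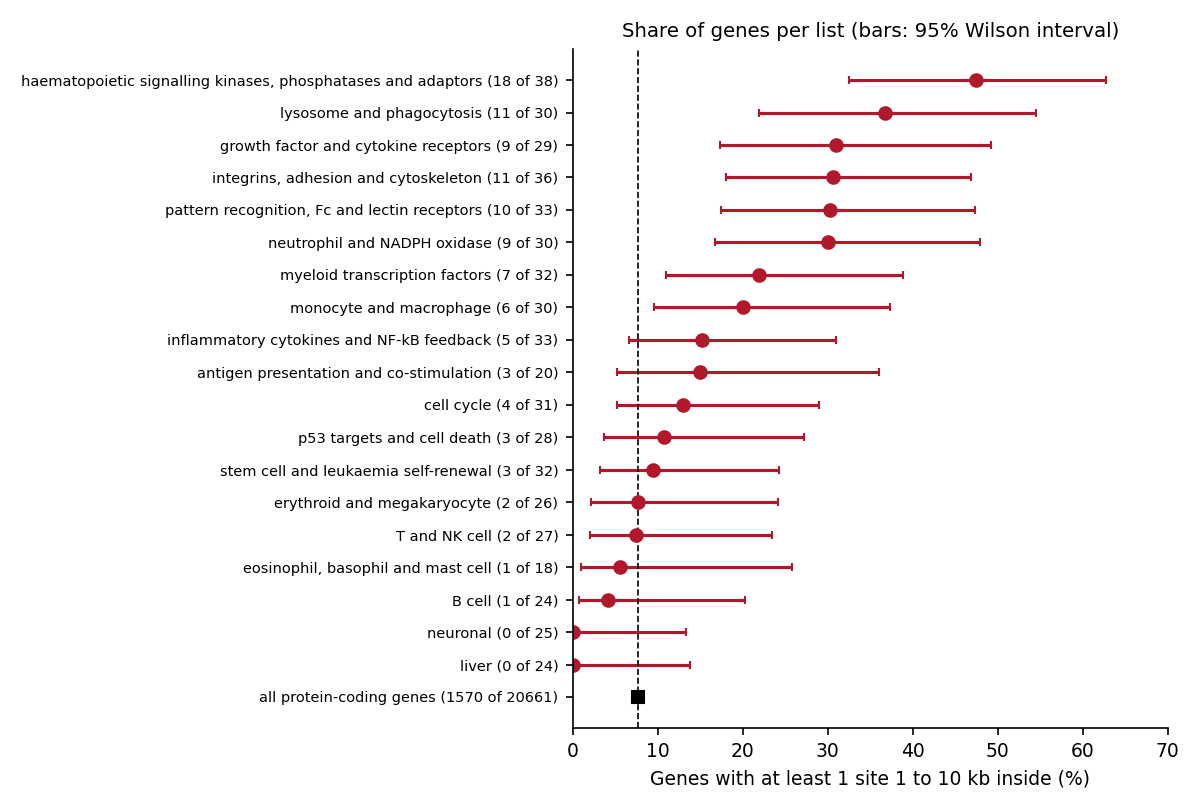
Share of genes (horizontal axis, per cent) that hold at least 1 intragenic PU.1 site 1 to 10 kb from an end, by gene list, with the numbers of genes beside each name; points are shares, bars Wilson 95% intervals, and the dashed line and the square mark all protein-coding genes (7.60%). The signalling list is highest at 47.4%, and the liver and neuronal lists stand at 0.

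In the other lists the interval included the share of all genes. Inflammatory cytokine and NF-kB feedback genes held a site in 5 of 33 (15.2%, 6.65 to 30.9), with Tnfaip3, the A20 inhibitor of NF-kB (14.2), Il1rn (14.0) and Il12b (11.9) highest, and none in Ccl5 or Il10. Antigen presentation genes held one in 3 of 20 (interval 5.24% to 36.0%), in Pdcd1lg2 (13.4 and 5.82), Ciita, the class II transactivator (8.72 and 6.61), and Cd74 (1.57), and none in B2m or Cd274. The density of this list, 23.7 per Mb (7.68 to 55.2), had an interval above the 7.38 per Mb of all genes but not clear of their interval. Cell cycle genes held one in 4 of 31 (12.9%, 5.13 to 28.9), with Cdkn1b, the p27 inhibitor (12.5 and 4.29), E2f3 (11.1) and Rbl1 (3.71) highest, and none in Aurka or Aurkb. The p53 target and cell death genes held one in 3 of 28 (10.7%, 3.71 to 27.2), Sesn2 (12.5), Bid (5.37) and Xpc (2.46), and none in Aen or Apaf1; Trp53, the gene deleted in these cells, held none. Stem cell and leukaemia self-renewal genes held one in 3 of 32 (9.38%, 3.24 to 24.2), Mcl1, a survival factor (13.7 and 5.92), Kit (8.03) and Dot1l (4.99), and none in Bcl2 or Bmi1. At other distances, the span of Bcl2 held 6 listed summits and that of Bmi1 held 0.

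Lists of other blood lineages had shares whose intervals held the 7.60% of all genes. Erythroid and megakaryocyte genes held one in 2 of 26 (7.69%, 2.14 to 24.1), Vwf (20.4) and Ermap (13.4), with none in Ank1 or Car1. T and NK cell genes held one in 2 of 27 (7.41%, 2.06 to 23.4), Cd4 (14.2) and Gata3 (7.80), with none in Bcl11b or Cd2. Eosinophil, basophil and mast cell genes held one in 1 of 18 (5.56%, 0.988 to 25.8), Hdc (13.9), with none in Ccr3 or Cpa3. B cell genes held one in 1 of 24 (4.17%, 0.739 to 20.2), Ms4a1, the CD20 gene (12.1), with none in Bach2. The span of Bach2, of 348 kb, held 9 listed summits at other distances. Of liver genes, 0 of 24 held one (up to 13.8%; Ahsg and Alb among them), and of neuronal genes 0 of 25 (up to 13.3%; Camk2a and Cntnap2 among them). The neuronal genes had a median length of 103 kb, and their 0.419 Mb of eligible interior allowed up to 8.80 sites per Mb, so a density equal to that of all genes was not excluded at this number of genes.

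Host genes more often had further sites at their own ends. Of the 1570 hosts, 164 also had a listed summit within 1 kb of their own start or end (10.4%, 9.03 to 12.1), against 1142 of the 16754 genes that have an eligible interior but no site in it (6.82%, 6.44 to 7.21). The hosts were also longer than other genes, and the part of length in this difference was not tested. Another summit lay within 1 kb of 110 of the 1804 sites (6.10%, 5.08 to 7.30) and of 6.19% (5.71 to 6.70) of all other sites. Within 10 kb it was 633 (35.1%, 32.9 to 37.3) and 33.1% (32.2 to 34.1), and the intervals overlapped at both distances. The nearest other summit was a median of 19.5 kb away for the interior sites and 22.5 kb for the others.

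Non-coding genes accounted for few of the sites. An end of one lay within 1 kb of 60 of the 1804 (3.33%, 2.59 to 4.26) and of 102 of 3257 sites deeper inside genes (3.13%, 2.59 to 3.79). Of the 60 nearest non-coding genes, 50 were long non-coding RNAs and 4 were microRNAs. By chromosome, these sites made up between 11.4% of all sites (chromosomes 17 and 18) and 24.7% (chromosome 11; interval 21.6 to 28.1), and there were 5.76 to 11.8 of them per 100 protein-coding genes.

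The position limits cut through a continuous range. Just inside the inner limit lay the sites of Dmpk at 1001 bp from an end (score 5.11) and Ttc32 at 1009 bp (7.69), and just outside it those of Pgs1 at 998 bp (5.20) and Atp6v1d at 993 bp (4.98). Just inside the outer limit lay those of Gpt2 at 9991 bp (5.59) and Rftn2 at 9989 bp (7.80), and just outside it those of Nrip1 at 10002 bp (9.71) and Hk2 at 10013 bp (4.29).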

How the data were processed

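PU.1 ChIP-seq was carried out on 3 PU.1 high and 2 PU.1 low libraries. The reads were processed with CASAVA 1.8.2 and MACS2 on the mm10 build, per the submitters' processing notes. The aligner, the MACS2 version and settings, and the handling of replicates in the calls were not given in the sources used here. Each summit of the deposited list has 1 score on a −log10 scale, and no source used here says if p-values or q-values are meant. Stricter or deeper calling would change which sites are listed and raise scores, so scores were compared within the list only.

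Summits (1-based) were placed against the gene spans of a RefSeq table of GRCm38.p6 with Python 3.11.15, numpy 2.4.6, pandas 2.3.3 and scipy 1.17.1; figures were drawn with matplotlib 3.10.9. Eligible sequence was counted once per base for position classes, steps of distance and the comparison of starts with ends. For gene length classes and gene lists it was counted for each gene. Sequence and sites shared by overlapping genes then count more than once (249.6 Mb and 1843 over all genes). Host genes are those whose span holds the summit, and a site in several genes was placed in the shortest for distances to its start or end. Strand and the promoter sequences came from RefSeq windows of GRCm38.p6. No genome sequence was used, so the planned search for motifs around every summit was replaced by a search of promoter windows, with chromosome 18 left out. All shares have Wilson intervals, densities exact Poisson intervals and medians order-statistic intervals at 95%, and no test was run, since the list has no value per library. The computation was tested on simulated sites.

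The sites, the gene lists and the alternatives were chosen with earlier results of these data known. Of 558 list entries, 546 matched a gene on chromosomes 1 to 19. Genes named are the hosts of the 15 highest-scoring sites, the 8 genes with the most sites, in each list the 3 genes with the highest-scoring sites and the first 2 in alphabetical order above 4 kb without one, the sites nearest each limit, hosts whose promoter sequence is printed, Spi1 and Trp53. A few genes that meet it are not reported here. A gene named outside this rule is marked in the text as picked with its values known.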

Additional observations from a re-analysis of the deposited data

Results flagged for a closer look

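Chromosome X was outside the position rule and entered no comparison. By the same distances, 31 of its 186 listed summits lay inside a protein-coding gene at 1 to 10 kb from an end (16.7%, 95% Wilson interval 12.0 to 22.7), against 16.5% on chromosomes 1 to 19. They are given as signal in data outside the comparisons. These 31 came to 3.21 per 100 protein-coding genes of X (exact Poisson interval 2.18 to 4.56), against 8.73 (8.33 to 9.14) on chromosomes 1 to 19. Their median score was 8.56.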

How the results depend on the processing

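The share of summits that met the rule was 16.5%, and 20.4% when ends of genes of all biotypes counted, pseudogenes included. It was 9.26% with an outer limit of 5 kb and 13.3% with an inner limit of 2 kb. The density of 7.50 sites per Mb was 2.85 at a score of at least 10, 7.93 with the 5 kb limit and 7.10 with the 2 kb limit. At a score of at least 10 the median score was 13.1 instead of 8.64, and 3.14% instead of 7.60% of genes held a site. The moves of the shares, and those at a score of at least 10, follow from the alternatives' own construction, which admits other distances or fewer sites. The densities with the 5 kb and 2 kb limits were each taken over the sequence that meets those limits. Density was highest at 1 to 2 kb from the nearest end (9.74 per Mb). The share nearer to the start, 63.9%, was 61.3% with sites near every start in the promoter annotation left out (added after the data were seen), and the cause was not tested. Of the 19 lists, 14 had a higher share than all genes, 16 at a score of at least 10 and 15 with each site given to the gene with the nearest end. Under the first of these alternatives 9 single lists left their interval, and under the second 0 did. At a score of at least 10, 3.14% of all genes held a site. The B cell (4.17%), T and NK cell (3.70%) and eosinophil, basophil and mast cell (5.56%) lists then stood above it with 1 gene each. They had been below all genes before, and the stem cell list (3.12%) fell below. The planned narrower motif window was not run, since no genome sequence was used. No paired analysis was possible because there is no value for any single library, which also means that no replicate could be left out. The unknown depth limits how many weak sites the list can hold.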
